A study of Mus musculus with 6 samples.

Results

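The 10 genes described here belong to the immediate early class. They are the AP-1 subunit genes Fos, Fosb, Jun, Junb and Jund, the related leucine zipper gene Atf3, the zinc finger genes Egr1 and Egr2, Ier2, and the phosphatase gene Dusp1. They were chosen by name, not by any value, and are 10 of the 36083 genes in the table. RNA-seq had been performed on lineage-negative (Lin-) cells of a mouse model of blast crisis chronic myeloid leukemia (bcCML), the acute stage of that disease, to compare cells with and without Sdc1, which encodes the cell surface proteoglycan syndecan-1. The donor cells were KLS cells, a bone marrow fraction rich in stem and progenitor cells, from WT or Sdc1-/- mice on the B6 background. In both groups BCR-ABL and NUP98-HOXA9 had been brought in by infection, so the controls carry both oncogenes too, and cells positive for both were transplanted. The labels name NSG mice as recipients, a strain that lacks mature T, B and NK cells but keeps its own myeloid and erythroid cells, whereas the study's general methods describe irradiated mice of a congenic strain. All recipients were killed at the same time, and Lin- cells were sorted from the spleens, with 3 libraries labelled WT and 3 labelled Sdc1-/-. The oncogenes came from viral vectors rather than their own promoters, the labels give no age, and nothing in them ties a library to its own mouse. A supplementary legend of the study describes its RNA-seq of Lin- WT bcCML cells as 3 technical replicates. The p-values therefore measure the spread between these libraries, which may be technical, and not a spread known to lie between mice.

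Immediate early genes are switched on within minutes of a growth factor, adhesion or stress signal, with no need for new protein, and their mRNAs are short-lived. The kinases ERK, JNK and p38 reach them through SRF with its Elk partners and through the CREB/ATF factors. Fos and Jun proteins then pair as AP-1, Egr proteins bind GC-rich sites, and Dusp1 dephosphorylates the same kinases and so shuts the signal off. In myeloid cells these genes are known for their part in monocyte and macrophage differentiation and in the response to cytokines.

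Values are TPM, in which each library's transcripts add up to the same sum. They are scaled for transcript length so that levels of different genes can be compared, and were rescaled between libraries by the authors. Sdc1, the targeted gene, stood at 1.75, 1.21 and 1.51 under the WT label and at 3.85, 3.80 and 4.12 under the Sdc1-/- label, so its mRNA was higher under the Sdc1-/- label, and the groups are named by their labels throughout. The study describes the allele as one that disrupts the signal peptide and keeps the protein from the cell surface, so the mRNA need not be lost, and these values do not show whether it is intact. Over all genes, 60.7% of the 12155 tested differed between the groups, with 29.3% higher in Sdc1-/- and 31.3% lower. Markers of other cell types moved with the groups as well, although a Lin- sort removes cells that bear mature lineage antigens. All 7 neutrophil markers were lower in the libraries labelled Sdc1-/- (summed values of 13031 to 13967 in WT and 4693 to 4828 in Sdc1-/-), as were all 8 monocyte and macrophage markers (560 to 582 and 242 to 250) and all 6 erythroid markers (9430 to 10126 and 5191 to 5593). Of the 5 progenitor markers Kit and Msi2 were higher and the other 3 lower. Of the 5 megakaryocyte markers 1 was higher and 4 lower. In the T and NK cell list, Cd3e was listed at 0 in the 3 WT libraries and at no more than 0.0382 in the others, but Nkg7 stood at 340 ± 5.57 in WT and was lower in Sdc1-/- (286 ± 7.07). In the stroma and endothelium list, Pdgfra was at no more than 0.0128, while Col1a2 was higher in Sdc1-/- (18.8 ± 0.356 and 23.2 ± 0.0473) and Pecam1 lower (15.3 ± 0.616 and 12.9 ± 0.0770). Y-linked genes were higher in the libraries labelled Sdc1-/- for 4 of 4 measured (summed values of 0.276 to 0.308 and 68.1 to 78.4). Y-linked RNA was thus close to absent in WT only, so the sex of the cells and the genotype cannot be told apart in any comparison here. The part of the marker and Y-linked differences in any result on the 10 genes was not tested, and in bulk RNA fewer cells of a type and less RNA per cell cannot be told apart.

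Promoters are shown for Dusp1 and Fos, the called members with the largest falls. Those of Junb, the most abundant of the Fos and Jun genes, and of Atf3 are shown too. Sites for the factors that link kinases to these genes lie in promoters. The windows come from RefSeq on GRCm38.p6, and 8 of the 10 members had at least 1. Capitals mark matches to the motifs searched, on either strand (CGTCA is the CRE core on the other strand), and the sequences run 5′ to 3′ on the gene's strand through the 250 bases before the start site, at chr17:26508473-26508722 (minus strand) for Dusp1, chr12:85473640-85473889 (plus) for Fos, chr8:84978749-84978998 (minus) for Junb and chr1:191183334-191183583 (minus) for Atf3.
Dusp1: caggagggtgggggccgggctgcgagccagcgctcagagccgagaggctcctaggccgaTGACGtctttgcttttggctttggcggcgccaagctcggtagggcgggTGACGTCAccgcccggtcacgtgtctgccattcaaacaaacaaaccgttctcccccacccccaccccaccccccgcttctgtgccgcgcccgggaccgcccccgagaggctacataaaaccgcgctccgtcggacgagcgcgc
Fos: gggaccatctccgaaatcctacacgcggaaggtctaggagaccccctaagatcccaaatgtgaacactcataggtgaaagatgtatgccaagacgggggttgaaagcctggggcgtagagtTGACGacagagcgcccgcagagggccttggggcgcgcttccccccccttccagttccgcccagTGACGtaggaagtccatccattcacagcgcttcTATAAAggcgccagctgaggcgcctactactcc
Junb: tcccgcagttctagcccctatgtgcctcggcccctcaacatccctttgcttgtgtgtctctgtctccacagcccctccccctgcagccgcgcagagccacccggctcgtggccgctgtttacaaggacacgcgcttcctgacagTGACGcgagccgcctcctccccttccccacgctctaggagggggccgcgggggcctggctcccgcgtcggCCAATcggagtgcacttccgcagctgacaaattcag
Atf3: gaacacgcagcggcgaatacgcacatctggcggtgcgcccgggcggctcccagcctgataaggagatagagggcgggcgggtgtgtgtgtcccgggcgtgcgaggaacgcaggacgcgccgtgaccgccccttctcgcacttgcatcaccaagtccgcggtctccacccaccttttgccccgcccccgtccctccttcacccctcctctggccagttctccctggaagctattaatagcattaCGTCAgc

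The motif most common among the members was TGACG, the core of the cyclic AMP response element (CRE) that CREB and ATF proteins bind. With both strands searched in windows of 300 bases, which add 50 bases from the start site on, it occurred for Dusp1, Fos, Junb, Fosb, Egr2 and Atf3, which is 6 of the 8 members with a window. A gene was counted where any of its windows matched, as were the 26994 genes with a window, of which 23.02% held the core. Egr2 had 5 windows, and 3 of them held it. The full palindrome TGACGTCA, which holds the core on both strands, was found for Dusp1 alone among the 8, at bases -143 to -136 from the start site counted as 0, against 2.03% of all genes. Another core lay at -191 in Dusp1, and Fos had cores at -129 and -66. The AP-1 site TGANTCA was in no member's window and in those of 8.98% of all genes. The CArG box bound by SRF was found for Egr2 alone (1.81% of all genes), the Egr site GCGNGGGCG for Fosb alone (6.28%), and CCAAT for Jun, Junb, Egr2 and Atf3 (41.0%). Bases further than 250 upstream were not searched, and Egr1 and Ier2 had no window. A motif not found here, such as the CArG box for Fos, can therefore lie outside the window. TATAAA, searched on the gene's strand only, was found for Fos at -33 and for Junb at the start site itself (9.78% of all genes), and for Junb the GENCODE start lies 30 bases further downstream. The Jund window held none of these motifs. RefSeq and GENCODE can place the start apart: the GENCODE gene start of Jund lies 1210 bases downstream of the RefSeq start, and those of Dusp1 and Atf3 lie 53656 and 34706 bases upstream, so the windows of these genes cover the RefSeq start only. A match is a run of letters and no evidence of binding.

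**Figure D1:**
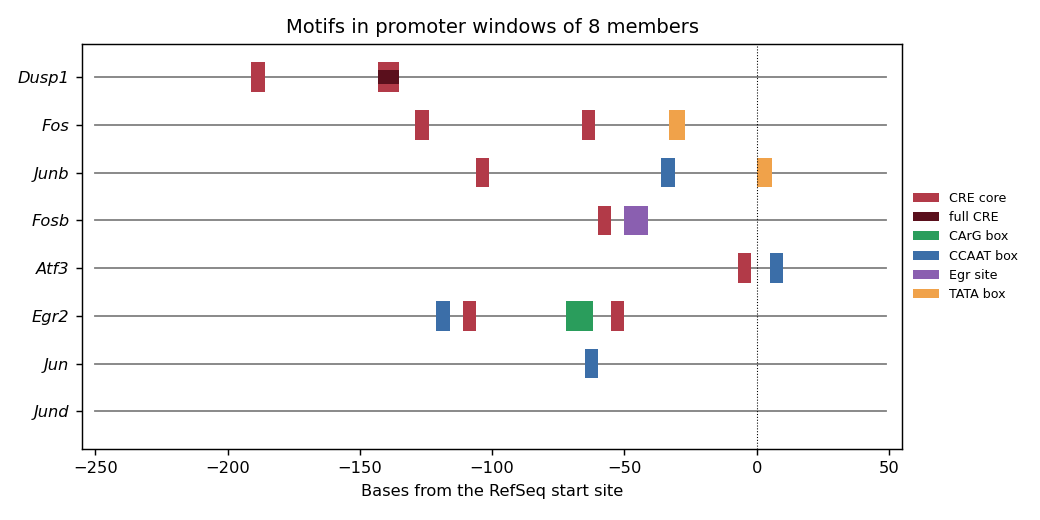
Motif matches in the promoter windows of 8 members, by distance in bases from the RefSeq start site (dotted line), with 1 of 5 windows drawn for Egr2. The CRE core (red) is present for 6 of the 8 genes, the full CRE (dark red) only for Dusp1, and the Jund window is empty.

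The members spanned a wide range of abundance. Ier2, which encodes a nuclear protein, had the highest value, with a mean of 33.9 ± 1.65 in WT and 33.5 ± 1.08 in Sdc1-/- (SD, n = 3 libraries each, as for all values below). Junb, Egr1 and Jund followed, and Dusp1 stood just above Jund in WT and well below it in Sdc1-/-. Fos, Jun, Atf3, Egr2 and Fosb were near or under 1. Within that order the neighbours Egr2 and Atf3 overlapped in both groups, and Fos and Jun overlapped in Sdc1-/- only. The test needed a mean of 1 or more across the 6 libraries, which 6 members had: Fos, Junb, Jund, Egr1, Ier2 and Dusp1. Fos reached it only through the WT libraries, with a mean of 1.61 in WT and 0.849 in Sdc1-/-. Of the 6 tested members, 4, Fos among them, were lower in Sdc1-/-, 0 were higher and 2 did not pass the threshold (limma with Benjamini-Hochberg adjustment over all 12155 genes at 0.05), beside 31.3% of all tested genes lower. Among all 10 members, the Sdc1-/- libraries lay below every WT library for 6 and above for 0. Over the 24714 genes not at 0 throughout, 21.7% lay below and 22.0% above. Those genes, like the 10 members, include some with a mean under 1. The counts and shares of overlap hold for the values as rescaled by the authors and were not recomputed with another scaling.

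**Figure D2:**
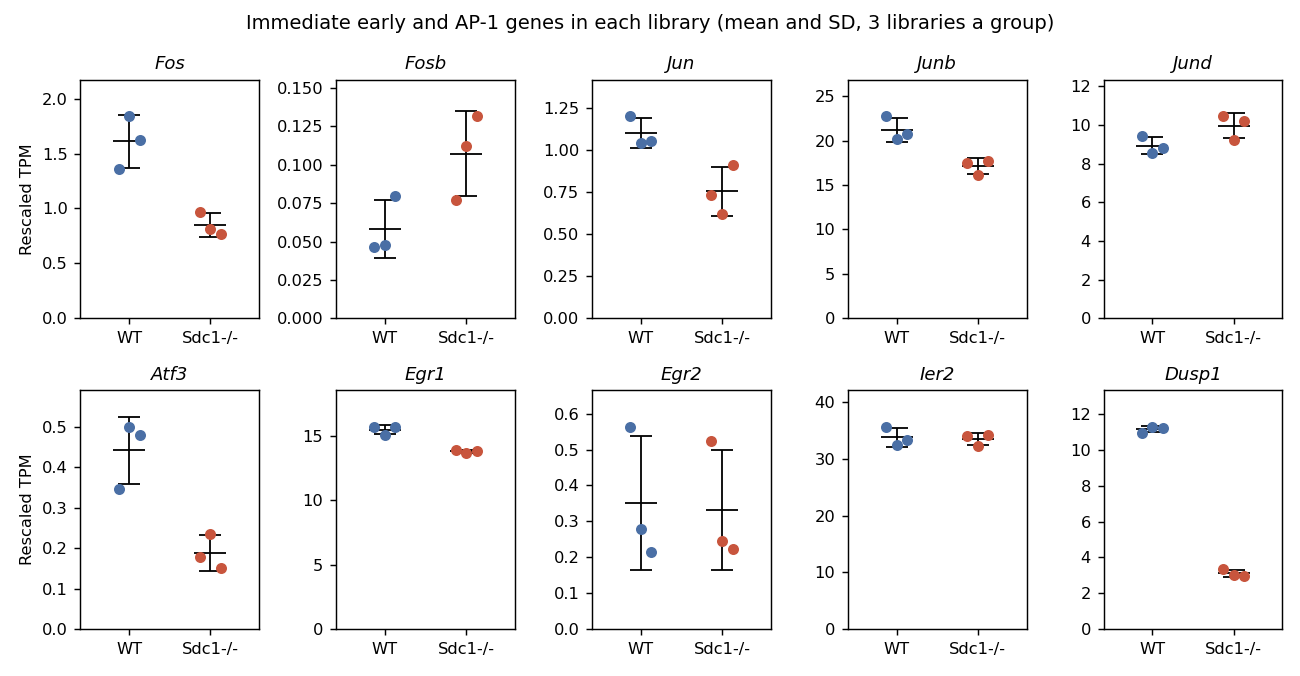
Rescaled TPM of the 10 members in each library (points), with the mean and SD of the 3 libraries of each group; each panel has its own axis from 0. Dusp1 shows the widest gap, from 11.0 to 11.3 in WT to 2.97 to 3.35 in Sdc1-/-, while Ier2, Jund, Egr2 and Fosb overlap between the groups.

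Dusp1 (ENSMUSG00000024190), the nuclear phosphatase that inactivates p38, JNK and ERK, showed the largest difference of the 6 tested members. Its values were 11.0, 11.3 and 11.2 in WT and 3.35, 3.04 and 2.97 in Sdc1-/-. Every Sdc1-/- library lay below every WT library by a distance far wider than the spread within either group. The mean fell by 72.1%, from 11.2 ± 0.173 to 3.12 ± 0.199. The log2 fold change was taken on log2(value + 1), where low genes appear to change less than they do, and was -1.56 (SE 0.054, 95% interval -1.69 to -1.44, adjusted p = 2.01e-06 by limma), and 98 of the 12155 tested genes had a lower one. The drop was of the order seen for the myeloid marker lists, whose median log2 fold changes were -1.64 for neutrophil and -1.12 for monocyte and macrophage markers, and their part in it was not tested.

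Of the Fos genes, which encode the AP-1 subunits that bind DNA only with a Jun partner, Fos itself fell. Fos (ENSMUSG00000021250) had values of 1.36, 1.84 and 1.63 in WT and 0.970, 0.809 and 0.769 in Sdc1-/-. The groups did not overlap, and WT was the more spread. The mean fell by 47.3%, with a log2 fold change of -0.49 (SE 0.097, adjusted p = 0.00387 by limma). Fosb (ENSMUSG00000003545), its close relative, was almost silent, at 0.0466, 0.0479 and 0.0798 in WT and 0.0772, 0.112 and 0.132 in Sdc1-/-. Its groups overlapped, its mean was too low for the test, and its direction was opposite to that of Fos.

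The Jun genes encode the partners that can pair among themselves or with Fos, and the 3 of them did not move together. Junb (ENSMUSG00000052837), by far the most abundant of the Fos and Jun genes, had values of 22.8, 20.2 and 20.7 in WT. In Sdc1-/- they were 17.5, 16.1 and 17.8. The Sdc1-/- libraries all lay below WT, and the mean went from 21.2 ± 1.35 to 17.1 ± 0.897, with a log2 fold change of -0.30 (SE 0.059, adjusted p = 0.00418 by limma). Jund (ENSMUSG00000071076), the member usually held at a steady level rather than induced, went the other way. Its values were 9.43, 8.57 and 8.80 in WT and 10.5, 9.24 and 10.2 in Sdc1-/-, so that the second Sdc1-/- library fell inside the WT range. The log2 fold change of 0.14 (SE 0.061, 95% interval -0.0020 to 0.29, adjusted p = 0.080 by limma) did not pass the threshold, but without the second Sdc1-/- library it was 0.19 and did (adjusted p = 0.0387). Jun (ENSMUSG00000052684), the founding member and main substrate of JNK, was low, at 1.20, 1.04 and 1.06 in WT and 0.732, 0.621 and 0.910 in Sdc1-/-. The groups did not overlap, with Sdc1-/- lower, and the gene missed the minimum mean. With no minimum, its difference of -0.26 had an adjusted p of 0.0529 (limma over 24714 genes).

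Atf3 (ENSMUSG00000026628), a stress-induced repressor that binds CRE and AP-1 sites, was at 0.3472, 0.5002 and 0.4790 in WT and 0.1784, 0.2353 and 0.1498 in Sdc1-/-. The Sdc1-/- libraries again all lay below WT, and the mean went from 0.442 ± 0.0829 to 0.188 ± 0.0435. It too missed the minimum mean. With no minimum it fell by 0.28 on the log2 scale (adjusted p = 0.0111 by limma), which made 5 lower and 0 higher among the 10 members, beside 16.6% of 24714 genes lower and 15.9% higher.

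The Egr genes encode zinc finger activators, and Egr1 is a direct target of ERK through SRF. Egr1 (ENSMUSG00000038418) had values of 15.7, 15.1 and 15.7 in WT and 13.9, 13.7 and 13.8 in Sdc1-/-. The change was small but the spread was smaller: the mean fell by 11.0%, with a log2 fold change of -0.16 (SE 0.038, adjusted p = 0.00936 by limma). Egr2 (ENSMUSG00000037868), which acts in macrophage differentiation, was at 0.563, 0.277 and 0.213 in WT and 0.525, 0.246 and 0.223 in Sdc1-/-. Its groups overlapped almost fully, and replicate 1 was the highest library in each.

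Ier2 (ENSMUSG00000053560), induced by serum like the others, showed no detectable difference. Its values were 35.7, 32.5 and 33.4 in WT and 34.0, 32.2 and 34.2 in Sdc1-/-, and the groups overlapped. The log2 fold change was -0.015 with a 95% interval of -0.12 to 0.095 (adjusted p = 0.80 by limma), so at this precision a change of the size seen for Junb lies outside the interval.

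The scaling between libraries decided several of these calls. The deposited libraries sum to between 944973 and 1058263, with the 3 WT libraries the larger. When every library was set to a sum of 1000000, the median gene shifted from a log2 fold change of -0.0097 to one of 0.12, with 43.5% of all tested genes then called higher and 19.5% lower. Dusp1 (-1.44) and Fos (-0.42) remained lower under that scaling. Junb (-0.16, adjusted p = 0.0522) and Egr1 (-0.017, adjusted p = 0.704) no longer passed, while Jund (0.28, adjusted p = 0.0059) and Ier2 (0.13, adjusted p = 0.040) were called higher, all by limma, so that 2 members were lower and 2 higher. Such a rescaling shifts nearly all genes alike, so differences from the median gene change little by construction: Dusp1 stood at -1.55 as deposited and at -1.56 with equal sums, Fos at -0.48 and -0.54, Junb at -0.29 and -0.28, Egr1 at -0.15 and -0.14, Ier2 at -0.0050 and 0.0065, and Jund at 0.15 and 0.15. The median log2 fold change of the 6 tested members was -0.23 as deposited and -0.086 with equal sums. Quantile normalization kept the 4 lower calls and gave no higher one, beside 28.4% of all genes lower and 31.1% higher.

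**Figure D3:**
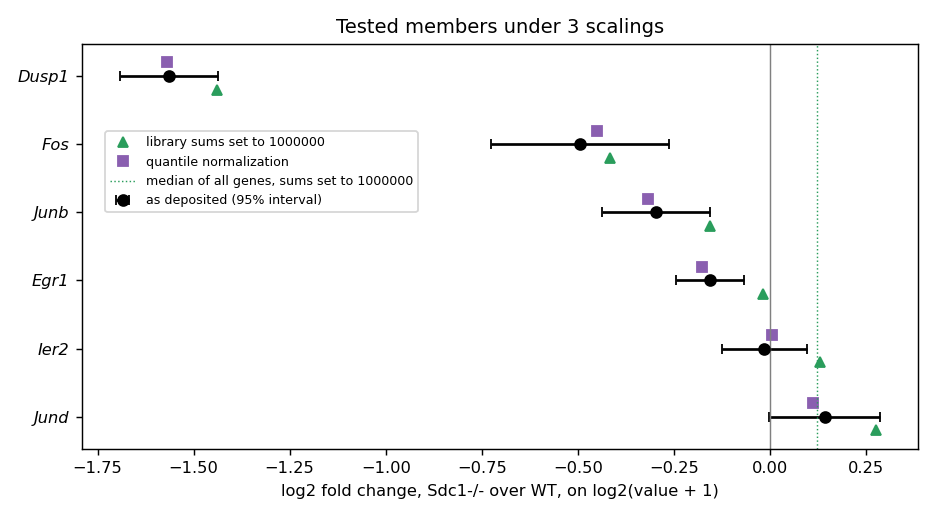
Log2 fold changes of the 6 tested members, Sdc1-/- over WT, with the deposited scaling (black, 95% interval), library sums set to 1000000 (green) and quantile normalization (purple). Dusp1 stays between -1.57 and -1.44, while Egr1 reaches -0.017 and Ier2 0.13 with equal sums, where the median of all genes (dotted) is 0.12.

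Ratios within a library do not depend on that scaling, and those given here were chosen after the values were seen. Junb to Jund was 2.42, 2.36 and 2.35 in WT and 1.67, 1.74 and 1.74 in Sdc1-/-. The groups lay apart with little spread within either (difference of -0.47 on the log2 scale). A two-sided exact permutation test gave p = 0.1, the lowest that 3 against 3 can reach, as for the other ratios without overlap. Dusp1 to Egr1 was 0.700, 0.749 and 0.716 in WT and 0.241, 0.223 and 0.215 in Sdc1-/-, a difference of -1.67 on the log2 scale. Dusp1 to Ier2 differed by -1.83, Egr1 to Ier2 by -0.15 and Jund to Ier2 by 0.17, each with no overlap between groups. Fos to Jun overlapped, with an exact p of 0.3.

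The make-up of the Fos and Jun families shifted accordingly. Junb held 64.5 ± 0.865% of the summed value of Fos, Fosb, Jun, Junb and Jund in WT and 59.4 ± 0.573% in Sdc1-/-. Jund went from 27.1 ± 0.125% to 34.6 ± 0.518% and lay above WT in every Sdc1-/- library. Fos went from 4.92 ± 0.953% to 2.95 ± 0.345% and Jun from 3.33 ± 0.101% to 2.61 ± 0.393%. Fosb never reached 0.5%. As deposited, the summed value itself went from 32.9 ± 1.64 to 28.8 ± 1.67 with no overlap between the groups. Unlike the shares, this sum depends on the scaling between libraries, and the WT libraries were the larger ones. It was not recomputed with equal library sums. These shares are descriptions with no test.

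**Figure D4:**
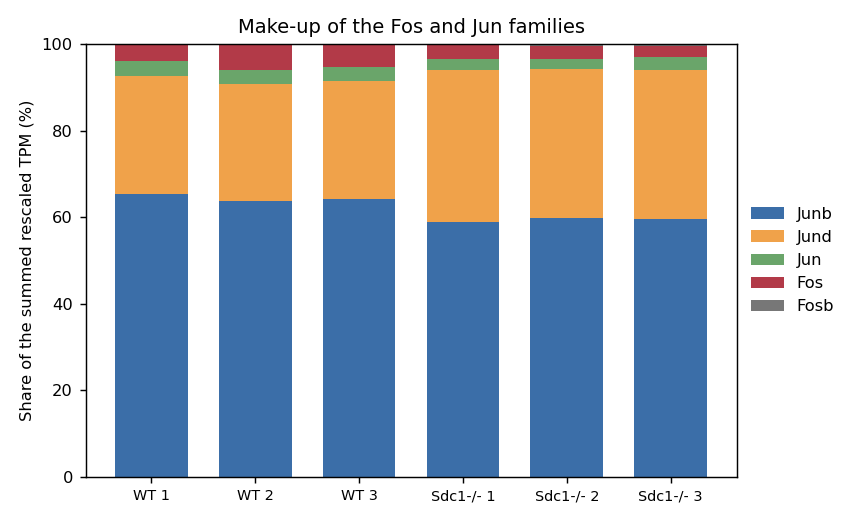
Share of each gene in the summed rescaled TPM of Fos, Fosb, Jun, Junb and Jund, per library, in percent. The Jund share is 27.0% to 27.3% in the WT libraries and 34.3% to 35.2% in the Sdc1-/- libraries, and the Junb share is 63.8% to 65.4% and 58.8% to 59.9%.

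The members share gene structures that bear on how they were measured. In GENCODE M21, Jun, Junb, Jund and Ier2 have a single exon. Of the 1638 words of 31 bases in Jund transcripts, 820 (50.1%) also occur in the antisense gene Gm11175. The value of Jund thus depends on how reads with these words were counted. For Jun, 202 of 3159 words (6.39%) occur in the antisense gene Junos, and for Junb 146 of 2241 (6.51%) occur in Prdx2, which is transcribed from the other strand at 677 ± 20.4 in WT and 732 ± 19.7 in Sdc1-/-. Neither Gm11175 nor Junos was found by name among the deposited genes. The library kit keeps the strand, but whether the counting used it is not given in the sources used here. Jund, Jun and Junb are uncertain to that extent. Fos, Egr1, Ier2, Dusp1 and Atf3 shared no word with a gene outside the members. Words shared between the members themselves were not counted.

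AU-rich elements in the 3′ UTR give many immediate early mRNAs their short life. The element ATTTA, searched on the mRNA strand, was present in 9 of the 10 members, all but Ier2, beside 69.7% of the 10865 tested genes with a 3′ UTR. The longer form TATTTAT, which contains it, was present in 6 of the 10 beside 29.0%. Dusp1 had the densest run, 4 ATTTA in 690 bases or 5.80 per kb, followed by Fos with 4.91 per kb and Junb with 4.12 per kb, beside a median of 1.21 per kb over all tested genes. Egr1 had 1.64 per kb, Jund 1.88 per kb and Egr2 2.50 per kb. In all, 8 of the 10 members exceeded the median, while Fosb, with 0.434 per kb, and Ier2, without the element, did not.

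Of 105 other genes of the pathway, in 8 lists, 85 could be tested, and 21 were higher, 39 lower and 25 without a call in Sdc1-/-, against 29 higher and 24 lower with equal library sums. Over all tested genes 29.3% were higher and 31.3% lower, and 43.5% and 19.5% with equal sums. These shares stand beside the counts of each list below. Among 24 tested other early response genes, 16 were lower and 3 higher (11 and 5 with equal sums), with a median log2 fold change of -0.31 beside -0.0097 over all genes. Sgk1, a serum-induced kinase, went from 56.3 ± 1.57 to 19.5 ± 1.08 (log2 fold change -1.48, adjusted p = 1.57e-06 by limma) and Klf2, a zinc finger factor of quiescent cells, from 9.25 ± 0.507 to 3.12 ± 0.256. Trib1, a pseudokinase gene, and Myc, the growth regulator and most abundant of the list, rose by log2 fold changes of 0.38 and 0.18 (Myc by 0.33 with equal sums).

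All 6 tested genes described as AP-1 targets were lower (5 with equal sums), with a median log2 fold change of -0.88. Over all tested genes 31.3% were lower (19.5% with equal sums). Mmp9, a gelatinase also stored in neutrophil granules, went from 12.1 ± 0.717 to 2.49 ± 0.594 (-1.92) and Spp1, encoding osteopontin, which macrophages make, from 9.55 ± 0.229 to 3.20 ± 0.235 (-1.33). The neutrophil and macrophage markers fell beside them, and their part was not tested. Cd44, an adhesion receptor and the most abundant of the list, changed by -0.14 as deposited and by 0.00085 with equal sums.

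The other AP-1 and bZIP partners were split, with 3 higher, 3 lower and 5 without a call of 11 tested (5 higher and 2 lower with equal sums). These counts are near the shares over all tested genes, 29.3% higher and 31.3% lower (43.5% and 19.5% with equal sums). Jdp2, a repressor that pairs with Jun, fell from 7.28 ± 0.249 to 3.28 ± 0.358 (-0.96 on the log2 scale), and Atf5 fell by 0.31 on the log2 scale (adjusted p = 0.058 with equal sums). Atf7, which binds CRE sites, rose from 9.58 ± 1.99 to 14.9 ± 0.616, and Mafg, a small Maf, from 15.7 ± 0.658 to 19.9 ± 1.31. Atf4, the main factor of the amino acid and ER stress response and the most abundant of the list, had 150 ± 5.54 and 143 ± 2.86 with no call.

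Egr1 itself was lower as deposited but had no call with equal sums (-0.017). Of 5 tested other Egr, Nab and Nr4a genes, 3 were higher and 0 lower (4 and 0 with equal sums), with a median log2 fold change of 0.42. Over all tested genes 29.3% were higher (43.5% with equal sums). Nab2, a corepressor that binds Egr1 and is itself an Egr target, rose from 8.49 ± 0.157 to 12.0 ± 0.650 (log2 fold change 0.45, adjusted p = 2.72e-04 by limma). Nr4a2 (0.76) and Egr3 (0.42), named after their values were seen, were the others, both from levels near 1. Nr4a2, counted among the 3 higher, reached the minimum mean only through the Sdc1-/- libraries. Its mean was 0.765 in WT and 1.98 in Sdc1-/-. Nab1, the most abundant, had 23.95 ± 2.15 and 23.5 ± 1.23 with no call.

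Among the kinases upstream, 9 of 15 were lower and 2 higher, but 3 and 2 with equal sums. Over all tested genes 31.3% were lower and 29.3% higher (19.5% and 43.5% with equal sums). Rps6ka1, the ERK-activated kinase RSK1, fell from 98.7 ± 3.90 to 63.5 ± 4.38. The activators of JNK moved apart, with Map2k4 falling by 0.44 and Map2k7 rising by 0.34 on the log2 scale. Rps6ka4, the kinase MSK2, rose by 0.23 on the same scale and by 0.36 with equal sums. Of the 9 upstream transcription factors, 2 were higher and 2 lower (3 and 2 with equal sums). Elk4, an SRF partner, rose from 15.8 ± 3.11 to 24.6 ± 1.88, and the CREB relatives Crem and Atf1 fell by 0.74 and 0.33 on the log2 scale, Atf1 changing by -0.18 with equal sums.

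Of 6 other tested dual specificity phosphatase genes, the family of Dusp1, 1 was higher and 2 lower (2 and 1 with equal sums), beside 29.3% and 31.3% of all tested genes. Dusp7, an ERK phosphatase of the cytoplasm, rose from 5.87 ± 0.290 to 11.7 ± 2.38 (log2 fold change 0.87, adjusted p = 9.08e-04 by limma). Dusp2, a nuclear one like Dusp1, went from 13.1 ± 0.343 to 11.1 ± 0.352 (-0.22 as deposited, -0.084 and no call with equal sums), and Dusp6 had 20.98 ± 0.826 and 19.8 ± 1.21 with no call. Of 9 tested heat shock genes, another class induced quickly by stress, 7 were higher and 1 lower (8 and 0 with equal sums). Hsph1, encoding a large chaperone, rose from 38.1 ± 2.03 to 105 ± 3.70 and Hspd1, the mitochondrial chaperonin, from 387 ± 14.9 to 530 ± 16.7. Hspa8, the constitutive Hsp70, was called higher at 0.13 as deposited, 0.28 with equal sums and 0.34 after quantile normalization, but lost the call with no minimum mean (adjusted p = 0.066 by limma) and without Sdc1-/- replicate 2 (adjusted p = 0.058 by limma). Hsp90ab1 changed by -0.22 as deposited, by -0.067 with equal sums and by 0.027 after quantile normalization.

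**Figure D5:**
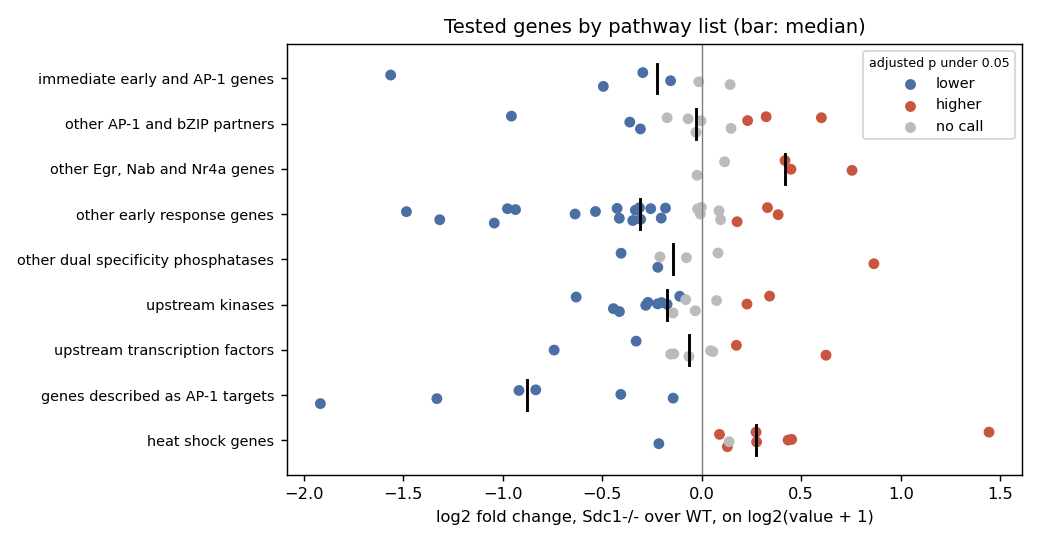
Log2 fold changes, Sdc1-/- over WT, of the tested genes in the members' list and 8 pathway lists (points, coloured by call at an adjusted p under 0.05; bars, medians). The medians run from -0.88 for the AP-1 targets to 0.42 for the other Egr, Nab and Nr4a genes, with -0.23 for the members.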

How the data were processed

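RNA-seq was performed on Lin- bcCML cells of 2 groups with 3 libraries each, grouped by the labels. For each library the authors deposited a signal per gene, namely TPM computed with kallisto (its version is not given in the sources used here) and rescaled between libraries. The submitters' processing notes name mm10 and sleuth 0.30.0. Read depth is unknown, so no interval from counting error is given. A second table holds the authors' own sleuth comparison (p-values, q-values, effect sizes and variances) and was not used.

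The 10 members and all gene lists were chosen with earlier results of these data known, so no p-value over a list is given. Of the 36083 genes, 11369 were at 0 in every library. Genes with a mean of at least 1 (12155) were tested on log2(value + 1) with limma 3.58.1 in R 4.3.3, with the group as sole term, a trend in the variance and Benjamini-Hochberg adjustment at 0.05, after the script had been tested on simulated data. The fit was made 15 times in all, the alternatives changing the pseudocount, minimum mean, scaling, variance trend, replicate block and libraries. Named from each list were up to 2 called genes with the largest rise and up to 2 with the largest fall, among those whose mean was 5 or more and whose groups did not overlap, plus the gene with the highest mean; 1 gene that this rule names is not reported here. Gene models and 3′ UTRs came from GENCODE M21 and promoter windows from RefSeq (GRCm38.p6). Python 3.11.15, pandas 2.3.3 and matplotlib 3.10.9 were used for the rest. Egr1 and Ier2 had no promoter window and no protein sequence was used here.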

Additional observations from a re-analysis of the deposited data

How the results depend on the processing

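Of 606 values recomputed under 14 alternative settings, 576 were rated as kept. A fold change was kept if its direction and its side of the threshold stayed. A share was kept if it moved by less than the spread between replicates. A count of genes was kept if it stayed within a set factor, a loose rule by which 5290 genes higher against 3564 was kept. Dusp1 kept its call in every setting, with log2 fold changes from -1.81 to -1.44, and Fos in each setting that could be fitted, from -0.85 to -0.42. Setting every library to a sum of 1000000 changed most: 2 members were higher and 2 lower, 24 pathway genes and 2367 of 12150 genes in all were lower (5290 higher, against 3564 higher and 3810 lower as deposited), and the log2 fold changes became -0.16 for Junb, 0.28 for Jund, -0.017 for Egr1, 0.13 for Ier2, 0.079 for Atf4, 0.12 for Nab1, 0.064 for Dusp6 and 0.00085 for Cd44. Quantile normalization gave 0.0044 for Ier2, 0.027 for Hsp90ab1 and a Jund share of 27.3% in WT. With no minimum mean, Atf3 was lower (-0.28, adjusted p = 0.0111 by limma). Leaving out each library in turn gave 0 to 1 higher members, and log2 fold changes of 0.11 to 0.19 for Jund, -0.043 to 0.023 for Ier2 and -0.095 to 0.027 for Nab1. Jund was called higher without Sdc1-/- replicate 2, and Ier2 and Nab1, neither of them called, turned positive without WT replicate 1 or Sdc1-/- replicate 2. Samples with the same replicate number did not all deviate together (correlations of 0.15, -0.0083 and 0.018). No pairing by number was evident, but correlations from 3 libraries per group cannot exclude one. A replicate block left Jund at 0.14 but called it (adjusted p = 0.040 by limma), for 1 higher member. The cause of these changes was not tested. The unknown depth limits the low members, Fosb, Egr2, Atf3, Jun and Fos, for which no counting error can be given.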
